A study of Mus musculus with 7 samples.

Results

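A set of 15703 genomic regions changed from chromatin state E4 under the solvent DMSO to state E1 under GSK-LSD1, in leukaemia cells from mouse bone marrow. The regions were chosen by the states themselves: each 200 bp bin of chromosomes 1 to 19 and X that was E4 in the DMSO segmentation and E1 in the GSK-LSD1 segmentation was taken, and adjacent bins were merged. They comprised 78539 bins (15.7 Mb) of the 363094 bins that were E4 in DMSO, and of 13168874 bins in all. The cells were from BALB/c mice and carried retroviral copies of mutant CSF3R (the receptor for the growth factor G-CSF) and of mutant CEBPA, which encodes a transcription factor of the granulocyte lineage, so both treatments share these 2 alleles. They were grown for 48 h with 4 nM GSK-LSD1, an inhibitor of the histone demethylase LSD1 (gene Kdm1a), or with DMSO. The histone marks H3K4me1, H3K4me3 and H3K27Ac were each mapped by ChIP-seq, 1 library per mark and treatment, and the authors deposited 1 segmentation into 6 states (E1 to E6) per treatment, built from the 3 marks together. There are no replicates, so no test of the treatment was possible and every value below is a description. Intervals are 95% Wilson intervals and cover counting error only, since neighbouring bins are not independent. The files hold no transcript levels, so the labelled cell type could not be checked against marker expression.

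LSD1 removes mono- and dimethyl groups from lysine 4 of histone H3. It acts in complexes with CoREST and is recruited in blood cells by the repressors GFI1 and GFI1B, which restrain enhancers of myeloid differentiation. H3K4me1 is typical of enhancers and of the margins of promoters, H3K4me3 of promoters, and H3K27Ac of active elements of both kinds. The sources used here do not say which marks define a state, nor whether E4 or E1 means the same combination of marks with each treatment. A change of number can therefore not be told apart from a change in how a number was assigned. In the DMSO segmentation E3 covered most of the genome and E2 the next largest area. E4 lay in 54371 segments with a median length of 1000 bp, of which 50.2% had E2 on 1 side and E5 on the other.

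Sequence was available for promoter windows, from 250 bases before to 50 after a RefSeq transcription start (build GRCm38.p6), and for miRNAs. Of 32412 distinct windows, 333 overlapped a converted region and 148, of 141 genes, lay wholly inside one. The 6 windows below lay in the longest of the converted regions that held a whole window, and they are shown as examples of what such regions hold at a gene's start. Capitals mark every CG. Gm36498, Gm36337, Gm38405 and Gm38482 are lncRNA genes. Serpinb7 encodes a serine protease inhibitor of the clade B serpins and Rufy3 a RUN and FYVE domain protein. The regions around them were 6.2 kb for Gm36498, 5.6 kb for Gm36337, 5.0 kb for Gm38405 and 4.8 kb for each of the last 3, which were 3 of 5 regions of that length, sorted by chromosome name as text.
Gm36498 (chr3:108036912-108037211, minus strand): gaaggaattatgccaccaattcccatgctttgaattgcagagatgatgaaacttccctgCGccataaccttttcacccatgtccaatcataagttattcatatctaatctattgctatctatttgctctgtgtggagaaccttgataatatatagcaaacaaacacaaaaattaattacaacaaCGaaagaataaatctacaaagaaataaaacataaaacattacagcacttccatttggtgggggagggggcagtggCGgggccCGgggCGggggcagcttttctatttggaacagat
Gm36337 (chr2:173050970-173051269, minus strand): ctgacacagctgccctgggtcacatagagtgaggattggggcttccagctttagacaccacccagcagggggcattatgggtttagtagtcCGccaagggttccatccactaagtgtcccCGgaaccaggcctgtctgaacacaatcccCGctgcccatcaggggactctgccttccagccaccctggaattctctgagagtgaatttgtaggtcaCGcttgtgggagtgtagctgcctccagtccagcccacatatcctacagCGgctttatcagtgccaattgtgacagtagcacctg
Gm38405 (chr7:99906325-99906624, minus strand): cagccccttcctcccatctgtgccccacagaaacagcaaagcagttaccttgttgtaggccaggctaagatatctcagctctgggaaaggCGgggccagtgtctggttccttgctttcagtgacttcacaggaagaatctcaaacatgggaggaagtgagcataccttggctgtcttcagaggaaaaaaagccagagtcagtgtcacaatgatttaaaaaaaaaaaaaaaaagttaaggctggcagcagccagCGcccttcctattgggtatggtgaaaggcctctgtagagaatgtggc
Serpinb7 (chr1:107422439-107422738, plus strand): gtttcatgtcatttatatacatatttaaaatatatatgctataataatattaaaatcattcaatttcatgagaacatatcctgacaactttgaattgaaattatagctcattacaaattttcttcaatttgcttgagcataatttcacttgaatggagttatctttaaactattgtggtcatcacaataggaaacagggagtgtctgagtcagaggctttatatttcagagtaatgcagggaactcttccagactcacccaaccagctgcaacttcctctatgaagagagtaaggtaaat
Gm38482 (chr11:116038540-116038839, plus strand): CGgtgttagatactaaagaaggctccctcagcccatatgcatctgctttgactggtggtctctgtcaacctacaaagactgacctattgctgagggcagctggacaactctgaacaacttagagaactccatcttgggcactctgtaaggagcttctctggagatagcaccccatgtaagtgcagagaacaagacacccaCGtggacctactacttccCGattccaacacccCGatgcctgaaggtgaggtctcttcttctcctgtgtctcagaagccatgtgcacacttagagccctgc
Rufy3 (chr5:88583263-88583562, plus strand): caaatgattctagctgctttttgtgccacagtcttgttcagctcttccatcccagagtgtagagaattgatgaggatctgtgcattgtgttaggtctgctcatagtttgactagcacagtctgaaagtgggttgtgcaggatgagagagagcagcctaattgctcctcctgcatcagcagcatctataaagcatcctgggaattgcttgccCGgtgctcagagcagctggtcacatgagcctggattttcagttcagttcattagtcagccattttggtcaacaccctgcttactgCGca
These windows held between 0 (Serpinb7) and 5 CG pairs (Gm36498 and Gm36337). The median over all windows was 7. Cebpa and Kdm1a, whose windows are CpG-rich with 29 each, were picked after their values were seen and are printed to show the other extreme, so their contrast with the 6 windows is no measurement of the group. Neither contained a converted bin: Cebpa's was E5 in both treatments, and Kdm1a's changed from E5 and E4 to E6 and E5.
Cebpa (chr7:35119043-35119342, plus strand): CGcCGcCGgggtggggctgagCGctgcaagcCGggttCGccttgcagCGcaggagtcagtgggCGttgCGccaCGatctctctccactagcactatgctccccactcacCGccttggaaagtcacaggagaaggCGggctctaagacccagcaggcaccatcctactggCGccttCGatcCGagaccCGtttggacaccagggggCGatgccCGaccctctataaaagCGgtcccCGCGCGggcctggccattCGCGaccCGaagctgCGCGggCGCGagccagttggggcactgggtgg
Kdm1a (chr4:136602674-136602973, minus strand): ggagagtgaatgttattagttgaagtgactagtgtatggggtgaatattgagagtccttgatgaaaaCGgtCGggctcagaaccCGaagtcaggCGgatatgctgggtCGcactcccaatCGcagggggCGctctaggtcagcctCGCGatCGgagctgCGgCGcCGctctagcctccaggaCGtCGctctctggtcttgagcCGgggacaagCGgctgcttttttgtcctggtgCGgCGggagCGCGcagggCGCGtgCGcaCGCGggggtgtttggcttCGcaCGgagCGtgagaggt

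Among the 245 windows that lay by at least 150 of their 300 bases in E4 bins that became E1, the median was 5 CG pairs (quartiles 2 and 8). The median was 9 in the 719 windows that stayed E4, 9 in the 1019 that became E5 or E6 and 10 in the 299 that became E2 or E3. It was 22 in the 12695 windows that were E5 or E6 in both treatments, 3 in the 10203 that were E3 in both, and 7 over all windows. With protein-coding genes alone the medians were 6 for conversion to E1, 11 for staying E4 and 13 for conversion to E5 or E6, so the order did not rest on the lncRNA genes, which made up 44.1% of the windows that became E1 and 29.4% of those that stayed E4. Over windows of all genes, the median for every fate of E4 thus lay nearer to the 3 of E3 promoters than to the 22. That position is not particular to conversion to E1, whose median of 5 was the lowest of these fates.

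Short motifs were counted in the same windows on both strands, as matches of letters and not as binding sites. The ETS core GGAAGT occurred in 27.3% of the 245 converted windows (22.1 to 33.2) and in 23.8% of all windows. The RUNX core TGTGGT occurred in 20.4% (15.8 to 25.9) against 16.6%, and the C/EBP half-site pair TTGCNNAA in 15.9% (11.9 to 21.0) against 10.9%. The GFI1 core AAATCA occurred in 14.7% (10.8 to 19.7) against 13.9%, and TATAAA in 13.5% (9.75 to 18.3) against 13.6%. Of these 5 motifs, the interval excluded the share over all windows for TTGCNNAA alone, and it did not do so with protein-coding genes alone, at 13.1% (8.48 to 19.8) against 10.2%. Over windows of all genes, the share with that motif was 9.87% (7.90 to 12.3) in windows that stayed E4, 11.0% (9.22 to 13.1) in those that became E5 or E6 and 14.0% in those that were E3 in both. In the printed windows, GGAAGT was found for Gm36498, Gm38405, Serpinb7 and Gm38482, and TTGCNNAA for none of the 6.

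Of 1005 miRNA hairpins in the RefSeq table used here, which lists hairpins on chromosomes 1 to 17, 19 and X of the set, 82 lay wholly in E4 in DMSO and 13 wholly in a converted region, which is 15.9% of the 82 (9.51 to 25.3), where 21.6% of all E4 bins were converted. The mature forms below were picked from those 13 after their places had been seen, because miR-141 and miR-200c share 1 region and because these miRNAs are well characterised. The seed, bases 2 to 8, is in capitals.
mmu-miR-141-3p: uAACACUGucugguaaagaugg
mmu-miR-200c-3p: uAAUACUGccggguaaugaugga
mmu-miR-222-3p: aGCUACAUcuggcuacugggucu
mmu-miR-339-5p: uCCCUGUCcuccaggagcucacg
Mir141 and Mir200c, members of the miR-200 family that restrains the epithelial-to-mesenchymal transition, lay in a 1.4 kb region (chr6:124717801-124719200) 0.856 kb from Phb2, the gene of a mitochondrial prohibitin. The seeds of their 3p arms are AACACUG and AAUACUG. In DMSO this region had E4 on 1 side and E2 on the other, and with GSK-LSD1 those sides were E6 and E1. Mir222, which is expressed in haematopoietic progenitors and targets Kit, lay in a 3.2 kb region of chromosome X (chrX:19146801-19150000) with the same arrangement, E2 and E4 in DMSO and E1 and E6 with GSK-LSD1. Mir339 lay in a region of 0.8 kb between E4 bins that became E6. Its 5p and 3p seeds are CCCUGUC and GAGCGCC, and none of the arms printed share a seed.

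E1 was the fate of 15.7 Mb of E4, against 28.2 Mb that became E5 or E6, 19.4 Mb that stayed E4 and 9.28 Mb that became E2 or E3. Of the E4 bins, 21.6% became E1 (21.5 to 21.8), 26.8% stayed E4, 19.9% became E6, 18.9% became E5, 8.44% became E2 and 4.34% became E3. Among all bins that were not E1 in DMSO, 4.45% were E1 with GSK-LSD1. Conversion to E1 was 17.0% for bins that had been E2, 2.47% for E6, 1.099% for E5 and 0.253% for E3. E2 was much the larger source by area: 95.3 Mb of E1 with GSK-LSD1 had been E2 and 15.7 Mb had been E4, which are 76.6% and 12.6% of the E1 area after treatment. Since the regions were chosen by this change, the shares describe the choice.

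The regions were short, with a tail of long ones. Their median length was 600 bp (quartiles 400 and 1400, longest 11600), and 3206 of them (20.4%) were a single bin. The median was also 600 bp for E4 that stayed E4, became E5 or E6, or became E2 or E3, but 11.0% of converted regions (10.5 to 11.5) were longer than 2 kb, against 6.39% (6.09 to 6.70), 5.14% (4.92 to 5.38) and 5.199% (4.83 to 5.60) of the others. Over the 19 autosomes the share of E4 bins converted was 22.0% ± 1.92 (SD over chromosomes), from 19.3% on chromosome 17 to 25.5% on chromosome 12. Chromosome X stood below all of them at 7.97%, with 89 regions or 0.520 per Mb against 4.33 to 10.7 per Mb on autosomes. On X 8.47% of E2 bins became E1 against 17.1% on autosomes, and 21.1% of E5 bins became E6 against 51.9%. Other changes were larger in share on X: 29.8% of E4 bins became E5 against 18.8%, and 12.02% of E2 bins became E4 against 5.38%.

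E2 and E4 were the commonest neighbours of converted regions. Counting both sides of each region, 46.8% of the flanking bins in DMSO were E2, 38.8% were E4, 10.1% were E5, 2.40% were E3 and 1.73% were E1. The commonest pair of sides was E2 and E4, at 44.2% of regions, followed by E2 and E2 at 17.5% (16.9 to 18.1), E4 and E4 at 12.1% and E2 and E5 at 11.7%. Only 19.7% of converted regions touched E5 or E6 in DMSO (19.1 to 20.3), against 33.4% of the regions that stayed E4 (32.8 to 34.0) and 81.1% of those that became E5 or E6 (80.7 to 81.5). The median gap to the nearest E5 or E6 was 1600 bp for converted regions and 400 bp for those that stayed E4. Regions that became E2 or E3 lay farther still, with a median gap of 6200 bp and 6.37% touching E5 or E6. They had E2 on both sides in 26.8% of cases. Distance from E5 or E6 and E2 on both sides were therefore not particular to conversion to E1.

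The flanks changed state too. Of 14706 E2 flanks, 94.8% were E1 with GSK-LSD1 (94.4 to 95.2), and of 755 E3 flanks 89.9% were. Of 12179 E4 flanks, which by the choice of regions could not become E1, 82.4% were E6 (81.7 to 83.1), 11.5% E2 and 5.44% still E4. Of 3186 E5 flanks, 50.1% became E1 and 49.6% E6. With GSK-LSD1 the sides were therefore E1 and E6 for 48.6% of regions (47.8 to 49.4), E1 and E1 for 24.4% (23.8 to 25.1) and E6 and E6 for 10.2% (9.74 to 10.7). The single commonest arrangement, an outer flank going from E2 to E1 and an inner flank from E4 to E6, was seen at 5776 regions (36.8%, 36.0 to 37.5). E2 to E1 on both sides followed, at 2447 (15.6%).

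**Figure D1:**
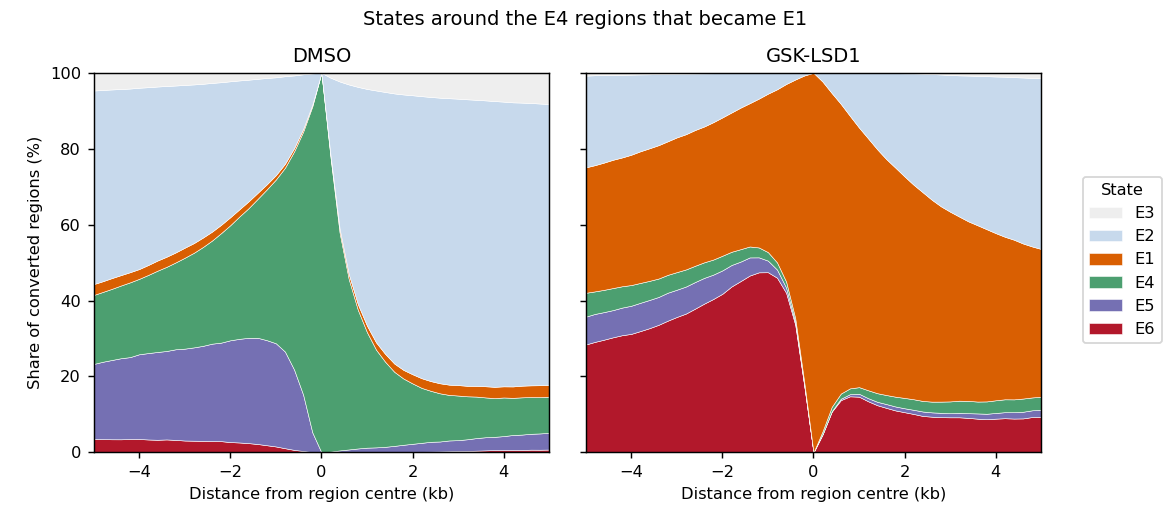
Share of the 15703 converted regions (vertical axis, %) in each state at each distance from the region's centre (horizontal axis, kb), in DMSO (left) and GSK-LSD1 (right), each region turned so that its nearer E5 or E6 in DMSO lies to the left. In DMSO E5 made up 27.2% of positions 1 kb to the left and E2 62.4% of positions 1 kb to the right. With GSK-LSD1 E6 made up 47.5% and E1 68.4% at the same places.

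The layered order is plain in the plot of states around region centres. At 1 kb on the side of the nearer E5 or E6, 43.1% of regions had E4 and 27.2% had E5 in DMSO, and 47.5% had E6 and 41.7% had E1 with GSK-LSD1. At 1 kb on the other side, 62.4% had E2 in DMSO and 68.4% had E1 with GSK-LSD1. The turning of the regions fixes which side holds E5 or E6 in DMSO, and it uses no state of the GSK-LSD1 segmentation. The choice of regions does use that segmentation. Regions longer than 2 kb, 11.0% of the set, are E1 at 1 kb by that choice. An E4 bin that adjoins a region cannot be E1. The shares with GSK-LSD1 are therefore partly fixed by the choice.

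Distance from E5 or E6 set apart the fates of E4. Of E4 bins touching E5 or E6 in DMSO, 7.30% became E1 (7.06 to 7.55) and 71.9% became E5 or E6. The share that became E1 was 20.1% at 1.2 to 2 kb (19.7 to 20.4), 32.0% at 2.2 to 5 kb (31.6 to 32.4) and 41.5% at 5.2 to 10 kb (40.9 to 42.1). It was lower again farther out, 35.2% at 10.2 to 50 kb and 22.8% beyond 50 kb (22.3 to 23.3), where 38.3% of E4 bins became E2 or E3. E4 thus had a zone of most frequent conversion to E1 at some kilobases from E5 or E6.

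**Figure D2:**
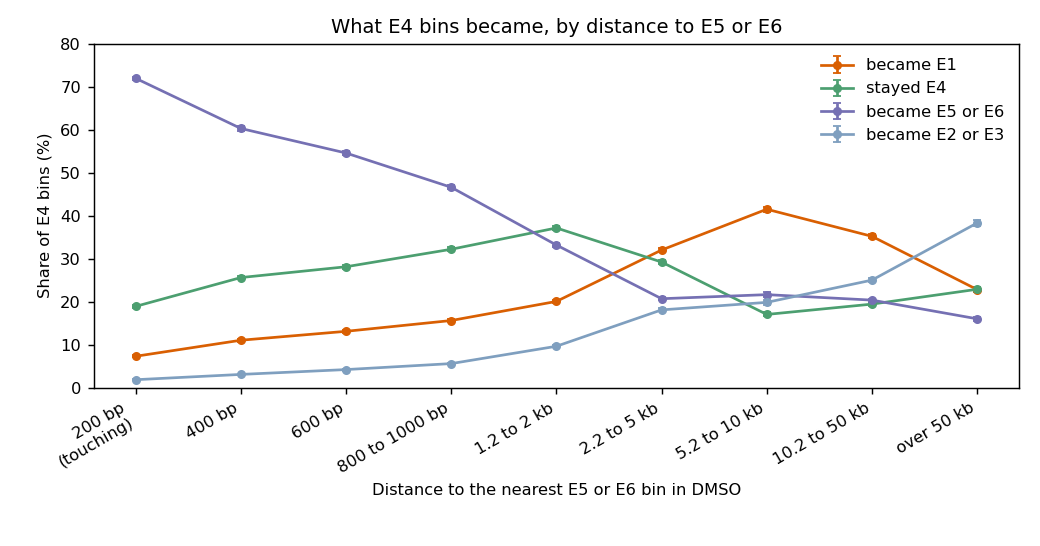
Share of E4 bins (vertical axis, %) that became E1, stayed E4, became E5 or E6, or became E2 or E3, by distance to the nearest E5 or E6 bin in DMSO (horizontal axis, classes in bp and kb). Points are shares with 95% Wilson intervals, most of them smaller than the symbols. Conversion to E1 is lowest where E4 touches E5 or E6, at 7.30%, and highest at 5.2 to 10 kb, at 41.5%.

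A gradient in the same direction was found along E4 segments, with bins pooled over segments. There were 16428 segments of at least 5 bins with E5 or E6 on 1 side and E2 or E3 on the other. Each segment was divided into 5 parts as nearly equal as bins allow. In the part next to E5 or E6, 8.97% of bins became E1, 26.3% E6 and 40.7% E5. The share that became E1 was 15.7%, 20.1% and 23.4% in the following parts and 27.2% in the part next to E2 or E3, where 10.1% became E6 and 8.26% E5. From the first part to the last, the share that became E2 rose from 0.741% to 15.5% and E3 from 0.954% to 4.84%. A rise toward E2 or E3 was therefore not particular to conversion to E1. In the 5590 segments with E2 on both sides, which were islands of E4 in an E2 domain, conversion to E1 varied little along the segment, from 38.1% in the middle part to 42.5% at an end. Conversion differed with the states at both ends of an E4 segment of any length. Between E1 and E2 54.6% of bins were converted, between E2 and E2 38.4%, between E1 and E5 37.4%, between E2 and E5 18.95% and between E2 and E3 18.1%. It was 14.5% between E5 and E5, 7.04% between E3 and E3 and 5.32% between E3 and E5. The shares were highest for segments next to E1 or between E2, and lowest between E3 and E3 or E3 and E5.

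Regions at 1 edge of their E4 segment show the direction most directly. Of all converted regions, 5427 (34.6%, 33.8 to 35.3) were a whole E4 segment, 8373 (53.3%) lay at 1 edge and 1903 (12.1%) were interior. Among the 8373, the converted edge faced E2 or E3 while the other end of the segment faced E5 or E6 in 4578 cases, and the converse was true in 494. The adjoining 200 bp bin of the same segment, which was not converted, was E6 with GSK-LSD1 in 84.0% of the 8373, E2 in 10.4% and still E4 in 4.91%.

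E4 segments that held a converted region seldom kept any E4. Of 54371 E4 segments in DMSO, 14252 (26.2%) held a converted bin. Of these 14252, 5427 became E1 throughout (38.1%) and 6189 became E1 and E6 with no other state (43.4%), and 7.53% kept at least 1 E4 bin. Among the 40119 segments with no converted bin, 52.6% kept some E4. The 5427 that became E1 throughout are among the 14252 and by the choice of regions could keep none. This contrast is therefore partly fixed by that choice. The other bins of the segments that held a converted region were E6 in 72.3%, E4 in 9.86% and E5 in 8.65% of cases. In segments without one, 14.6% of bins were E6, 39.7% were E4 and 27.7% were E5.

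The E5 or E6 segments nearby differed in the same way. Within 5 kb of 10276 converted regions lay 7479 segments that were E5 or E6 in DMSO, and 80.9% of their bins were E6 with GSK-LSD1 and 15.5% were E5. Near the regions that stayed E4, 12995 such segments had 37.0% of bins in E6 and 58.3% in E5. A segment may lie near regions of more than 1 fate and is then counted for each. These shares include bins that were E6 already in DMSO, so they are not rates of change from E5 to E6. Segments near E4 that became E5 or E6 had 57.0% of bins in E6 and 41.0% in E5. Near E4 that became E2 or E3 the shares were 33.9% and 57.1%. Segments near E4 that became E1 thus held mostly E6 bins with GSK-LSD1, as did, by a smaller share, those near E4 that became E5 or E6. Those near E4 that stayed E4 or became E2 or E3 held mostly E5 bins.

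After treatment the converted regions were often part of longer E1 segments. They fell in 13923 of the E1 segments (43.9%), whose median length was 3000 bp (quartiles 1400 and 6000, longest 103200) against 2200 bp for E1 segments without one. A longer segment is more likely to hold a converted bin, so the way the groups were made favours this difference. By area these segments had been E2 for 68.2%, E4 for 24.8%, E1 for 3.98% and E3 for 2.16% in DMSO. Of the 13923, 8086 (58.1%) had been E4 and E2 alone, 2792 (20.1%) E4 alone, and 1232 (8.85%) had held E1 already.

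Converted regions lay farther from genes' ends than other E4. Of the 15703, 83.9% were more than 2.5 kb from every end of a protein-coding gene (83.3 to 84.5), against 56.6% of regions that stayed E4 (55.99 to 57.2), 57.8% of those that became E5 or E6 (57.2 to 58.3) and 74.4% of those that became E2 or E3 (73.7 to 75.2). Over autosomes the share was 84.3% ± 3.88 (SD), from 76.9% on chromosome 7 to 91.1% on chromosome 12. The median distance to a gene end was 12.7 kb for converted regions, 3.11 kb for E4 that stayed and 3.29 kb for E4 that became E5 or E6. Regions over or within 1 kb of an end made up 2.27% and 6.0% of the converted set and 4.30% and 17.3% of the regions that stayed E4, while 37.5% and 18.5% lay at 10 to 50 kb. Genome bins as a whole were 92.9% distal, a share of single bins, while regions are often longer than a bin. E2 regions that became E1, merged the same way, were 86.2% distal, so this gene context was not particular to E4 that became E1.

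**Figure D3:**
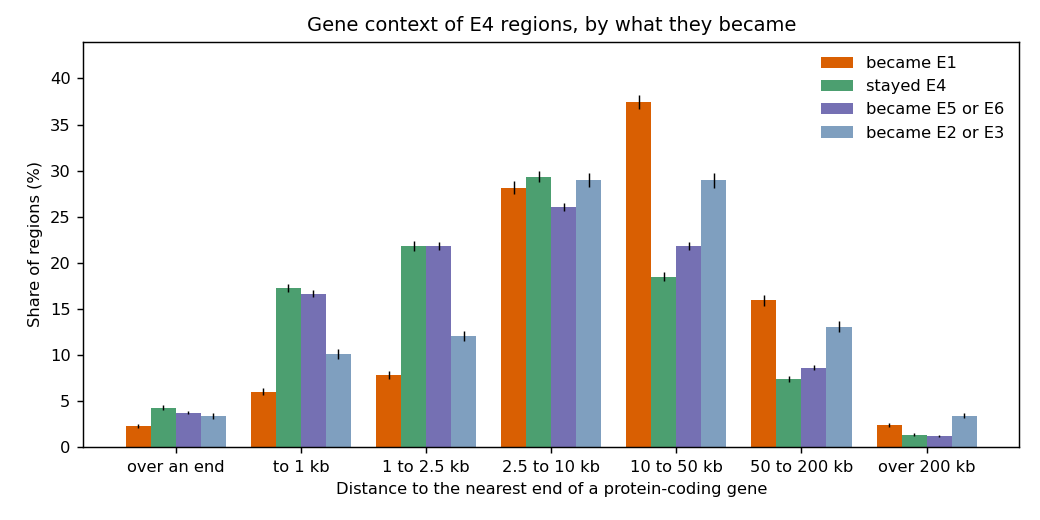
Share of regions (vertical axis, %, from 0) by distance to the nearest end of a protein-coding gene (horizontal axis, classes in kb), for E4 that became E1, stayed E4, became E5 or E6, or became E2 or E3. Bars are shares with 95% Wilson intervals. Regions that became E1 are most frequent at 10 to 50 kb, at 37.5%, where those that stayed E4 reach 18.5%.

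Most converted regions were inside genes. The centre lay in a protein-coding gene for 61.3% of converted regions (60.6 to 62.1), 56.6% of regions that stayed E4, 60.2% of those that became E5 or E6 and 39.2% of genome bins. For E2 regions that became E1 the share was 62.1%. The annotation used gives gene bounds and no exons, so introns and exons were not told apart. The median distance to a transcription start, of genes of any type, was 13.9 kb against 3.83 kb for regions that stayed E4. The side of the start differed little between fates: of 6141 converted regions within 10 kb of a start, 54.4% lay downstream of it (53.2 to 55.7), and the share was 55.8% for those that stayed E4 (55.0 to 56.6).

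The 10 longest regions spanned 9.0 to 11.6 kb, and each had E4 on at least 1 side that became E6. An 11.6 kb region lay in Svil, the gene of the actin-binding protein supervillin (chr18:4926401-4938000). Another of 11.6 kb lay outside protein-coding genes, 46.4 kb from Anxa3, which encodes an annexin of neutrophil granules (chr5:96892401-96904000). On the same chromosome a region of 11.2 kb lay in Bmp2k, a kinase gene (chr5:97017001-97028200). The others were in Arhgap39 (10.4 kb), Cux1 (9.8 kb), Rnf130 (9.6 kb), E2f3 (9.6 kb), Plcg2 (9.4 kb), Med13l (9.2 kb) and Kansl2 (9.0 kb). Cux1 and E2f3 encode transcription factors, and Plcg2 a phospholipase of immune receptor signalling. None of the 10 was a whole E4 segment, and the segments they lay in measured 10 to 15.8 kb.

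Of 21627 protein-coding genes, 8222 had a converted region in the gene or within 20 kb of it, a share of 38.0%. The median converted area was 0 kb over all genes and 1.8 kb over those with any, and 16549 genes had E4 in this window in DMSO. Long genes were touched more often: 23.2% of genes in the lowest quartile of length had a converted region and 46.5% in the highest quartile, whose windows had medians of 42.6 and 131.6 kb. Outside every such window lay 2495 of the regions.

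The 12 genes with the largest converted area had windows of 128.2 to 1342 kb, all longer than the median of 57.6 kb. In Sipa1l1, which encodes a GTPase-activating protein for RAP, 41.8 of 65.4 kb of E4 became E1 in 19 regions. In Med13l, a subunit gene of the Mediator kinase module, 34.6 of 45.6 kb became E1 in 13 regions, and 0.4 kb stayed E4. In Pde4d, which encodes a cyclic AMP phosphodiesterase, 34.0 of 87.2 kb became E1, spread over 39 regions in a window of 1342 kb. These 3 genes show 2 kinds of locus, 1 in which most E4 was converted and 1 in which a long window collected many short regions. For Ankrd11 the area was 32.8 of 69.6 kb, for Chst11, a chondroitin sulfotransferase gene, 31.4 of 41.0 kb, and for Chd7, which encodes a chromatin remodeller, 26.2 of 34.4 kb. Asap1 had 26.0 kb, Rnf130 25 kb, Prkca, the gene of protein kinase C alpha, 23.6 kb, and the growth factor receptor gene Igf1r 23.2 kb. The share of E4 converted was highest in Rnf130, at 83.9%, and lowest in Pde4d, at 39.0%.

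Ikzf1 and Cdk6 were among these 12 and are genes of blood cell growth and fate. Ikzf1 encodes Ikaros, a zinc finger factor of lymphoid and myeloid differentiation. Its window held 38.8 kb of E4 in DMSO, of which 23.8 kb became E1 in 21 regions, 14.2 kb became E5 or E6 and 0.8 kb stayed E4. E1 in the window went from 1.4 to 67.2 kb. Cdk6, a kinase of the G1 phase that holds progenitors in cycle, had 36.6 kb of E4, of which 22.0 kb became E1 in 19 regions and 0.4 kb stayed.

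**Figure D4:**
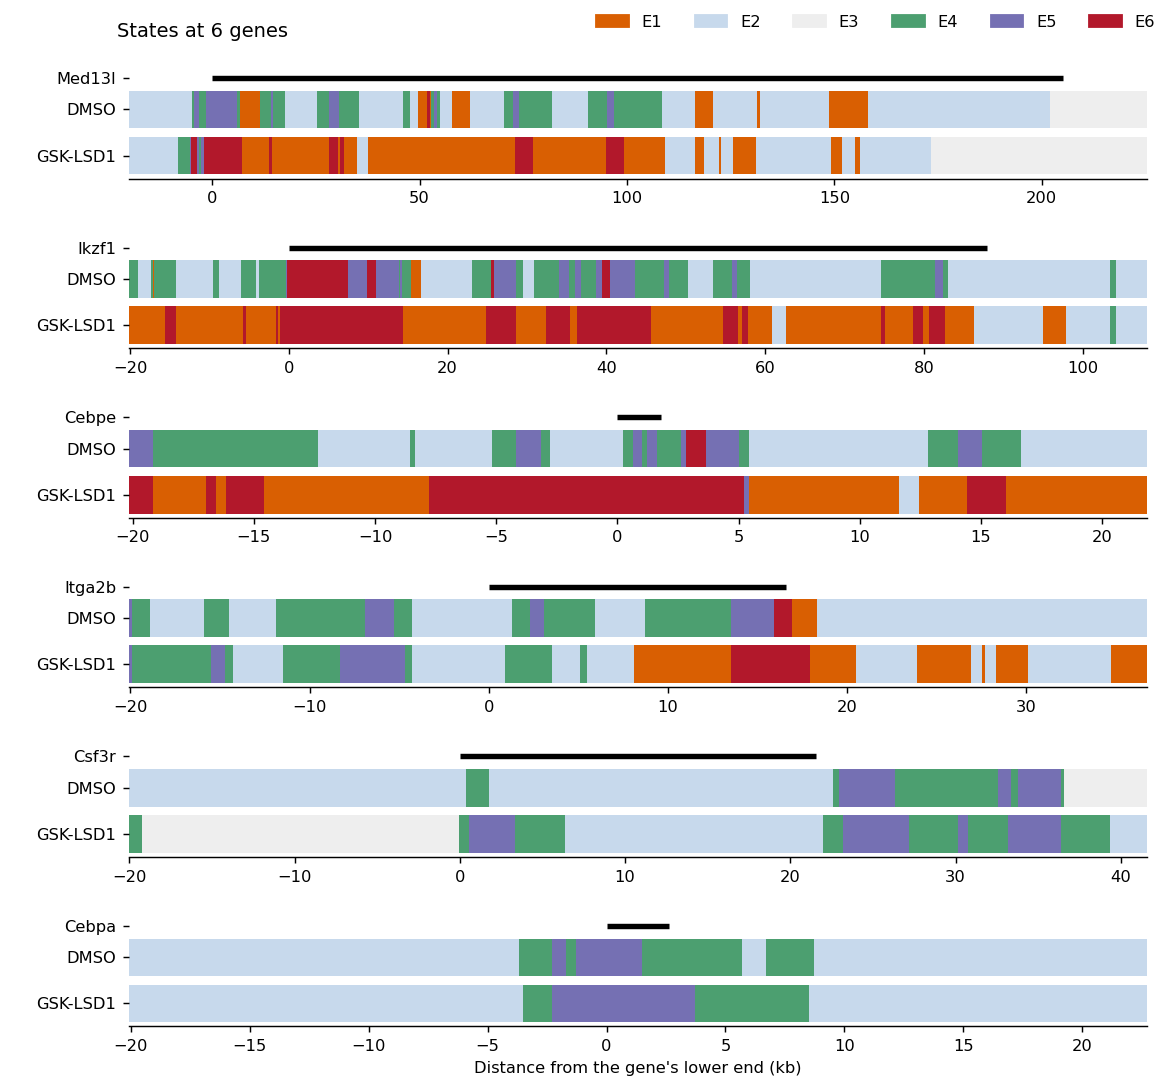
States at 6 genes with 20 kb on each side, in DMSO (upper band) and GSK-LSD1 (lower band), by distance from the gene's lower coordinate (horizontal axis, kb, a scale for each gene). The black line is the gene. At Med13l, Ikzf1, Cebpe and Itga2b, E4 stretches of the DMSO band stand over E1 in the GSK-LSD1 band, while at Csf3r and Cebpa no E1 is present in either.

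Of the 15 genes in the list of LSD1-CoREST and GFI1 partners, 10 had a converted region in their window (66.7%, median 1.0 kb), against 38.0% of all protein-coding genes, and all 15 had E4 in DMSO. Of their E4 area 17.5% became E1, against 21.0% for all protein-coding genes. Gse1, a CoREST-associated protein gene, had the most with 5.6 of 22.4 kb, followed by Rcor1, which encodes CoREST itself, with 4.6 of 8.6 kb and no E4 kept. Gfi1b had 1 region of 2.4 kb, between E4 bins that became E6, in 13.6 kb of E4, of which 10 kb became E5 or E6. Gfi1 had 2.0 of 10 kb converted in 2 regions that faced E2, and 7.6 kb became E5 or E6. Kdm1a had 1.6 of 3.8 kb in 2 regions inside the gene, both whole segments between E2. At these loci more E4 became E5 or E6 than E1, except at Rcor1 and Kdm1a.

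Myeloid transcription factors differed among themselves. Of 21, 13 had a converted region (61.9%, 40.9 to 79.2, median 0.8 kb), against 38.0% of all protein-coding genes, and 26.3% of their E4 became E1, against 21.0%. All 21 had E4 in DMSO, as had 16549 of 21627 protein-coding genes, so the 38.0% is not a matched background here or for the lists that follow. Runx1, a core binding factor subunit gene, had 16.6 of 44.4 kb converted, Fli1, of the ETS family, 8.2 of 34.8 kb, and Stat3 7.4 of 12.4 kb with no E4 kept. At Cebpe, the C/EBP factor of late granulopoiesis, 6.8 of 13.2 kb became E1 in 6 regions and the other 6.4 kb became E5 or E6. E1 there went from 0 to 23.4 kb. Spi1, which encodes PU.1, had 1.8 of 12.6 kb converted and 9.8 kb that became E5 or E6.

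Csf3r and Cebpa, the endogenous genes of the mutant proteins expressed in these cells, had no converted region. Of 8.6 kb of E4 around Csf3r, 5.6 kb stayed E4 and 3.0 kb became E5 or E6, and of 8.0 kb around Cebpa, 5.0 kb stayed and 2.6 kb became E5 or E6. Neither window held E1 in either treatment. The contrast with Cebpe, where no E4 was kept, is shown in the map of states at 6 genes.

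JAK-STAT genes had converted regions at 20 of 22 loci (90.9%, 72.2 to 97.5), with a median of 3.4 kb against 0 kb for all protein-coding genes. Of their E4 area, 33.7% became E1, against 21.0% for all protein-coding genes. All 22 had E4 in DMSO, and their windows were longer, with a median of 65.8 kb against 57.6 kb, so the 38.0% of all genes is not a matched background. Jak1 had the largest area with 13.6 of 26.4 kb in 15 regions, followed by Ptpn11, which encodes the phosphatase SHP2, with 9.6 of 21.6 kb and Stat3. Jak2 had 7.0 of 13.2 kb converted and Tyk2 7.0 of 23.2 kb. The neighbouring genes Stat5a and Stat5b had 4.8 and 6.6 kb, and as their windows overlap with each other and with that of Stat3 they share regions. Among the feedback and target genes, Socs2 had 3.2 of 5.6 kb, Pim1 2.4 of 3.8 kb and Osm 5.2 of 15.6 kb.

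Of 10 genes matched in the list named for azurophil granules, 9 had a converted region (90.0%, 59.6 to 98.2, median 1.6 kb), against 38.0% of all protein-coding genes. All 10 had E4 in DMSO, and 25.4% of their E4 became E1, against 21.0% for all protein-coding genes. The list held 17 kb of converted area in all. Its largest areas were at Plac8 with 4.0 of 9.2 kb, Cst7 with 3.0 of 4.8 kb and Igsf6 with 3.0 of 10.4 kb. Whether these 3 genes encode granule proteins was not checked, so the list's share may not describe granule genes. At the protease genes the areas were small: 0.4 kb each at Elane and Prtn3, whose windows overlap, and 2.4 kb at Ctsg. Mpo, the myeloperoxidase gene, had 3.0 of 8.8 kb. Of 20 granulocyte genes, 8 had a converted region (40.0%, 21.9 to 61.3, median 0 kb), close to the 38.0% of all genes, 17 had E4 in DMSO and 17.6% of their E4 became E1. The intervals of these 2 lists overlap, and the difference between them was not tested. Cxcr2, a chemokine receptor gene of neutrophils, had 5.0 of 6.0 kb converted in 5 regions, while the integrin genes Itgam (CD11b) and Itgb2 (CD18) had 5.0 of 15.0 kb and 5.0 of 16.4 kb.

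Progenitor and leukaemia genes had a converted region at 13 of 21 loci (61.9%, 40.9 to 79.2, median 1.0 kb), against 38.0% of all protein-coding genes. All 21 had E4 in DMSO, and 25.05% of their E4 became E1, against 21.0% for all protein-coding genes. After Cdk6, Myb, a transcription factor of progenitors, had 9.2 of 13.0 kb converted in 5 regions inside the gene with no E4 kept. Lyl1, a basic helix-loop-helix factor related to Tal1, had 4.4 of 9.6 kb. Monocyte and macrophage genes had regions at 9 of 18 loci (50%, 29.0 to 71.0, median 0.1 kb), an interval that includes 38.0%. Of these 18 genes, 14 had E4 in DMSO. They had the lowest share of E4 converted of all lists, 13.9%, as did the stromal list to this precision. Ccr2 had 4.0 of 14.0 kb, Ctss 3.0 of 7.4 kb and the Fc receptor gene Fcgr1 1.6 of 18.0 kb.

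Lists of other lineages were set beside the same 38.0% of all protein-coding genes. Of 11 mast cell, basophil and eosinophil genes 8 had one (72.7%, 43.4 to 90.3), and 39.2% of their E4 became E1, the highest share of the 12 lists. Hdc, which encodes histidine decarboxylase, had 10.6 of 13.6 kb converted, Fcer1a, the alpha chain of the IgE receptor, 5.6 of 7.0 kb, and the chymase gene Cma1 4.8 of 6.2 kb. None of these 3 kept E4. Of 18 B and T lymphocyte genes 9 had a region (50%, 29.0 to 71.0), an interval that includes 38.0%, and 15 had E4 in DMSO. Some windows of this list overlap and share regions, so the 9 are not all separate loci. Of the list's E4 area, 15.7% became E1, against 21.0% for all protein-coding genes. The largest area was at Tcf7, a factor of T cell progenitors, with 10.4 of 12 kb in 10 regions. Rag2 had 3.8 of 13.2 kb and Cd79a 1.6 of 2.6 kb. Of 15 erythroid and megakaryocyte genes 7 had a region (46.7%, 24.8 to 69.9), and this interval also includes 38.0%. In this list 13 genes had E4 in DMSO, and 21.6% of its E4 area became E1, close to the 21.0%. Zfpm1, the GATA cofactor gene FOG1, had 9.4 of 28.2 kb, Vwf 6.2 of 10.6 kb, and Itga2b (CD41) 1 region of 4.8 kb that was a whole E4 segment between E2 and E5.

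Of 12 stromal and endothelial genes 3 had a converted region (25%, 8.89 to 53.2), an interval that includes the 38.0% of all protein-coding genes. The 3 were Pecam1 with 2.8 of 18.0 kb, Pdgfrb with 2.0 of 7.4 kb and Acta2 with 0.2 of 1.4 kb. Of these 12, 7 had E4 in DMSO. Of 15 housekeeping genes 10 had a converted region (66.7%, 41.7 to 84.8, median 0.2 kb), against the same 38.0%, and all 15 had E4 in DMSO. Of their E4, 16.8% was converted, against 21.0% for all protein-coding genes. Gapdh had 7.0 of 13.2 kb, Actb 3.6 of 10.4 kb and Rpl13a 1.2 of 5.0 kb. Housekeeping genes thus had a region as often as the LSD1 partners did, and a region in the window is not particular to blood cell genes.

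**Figure D5:**
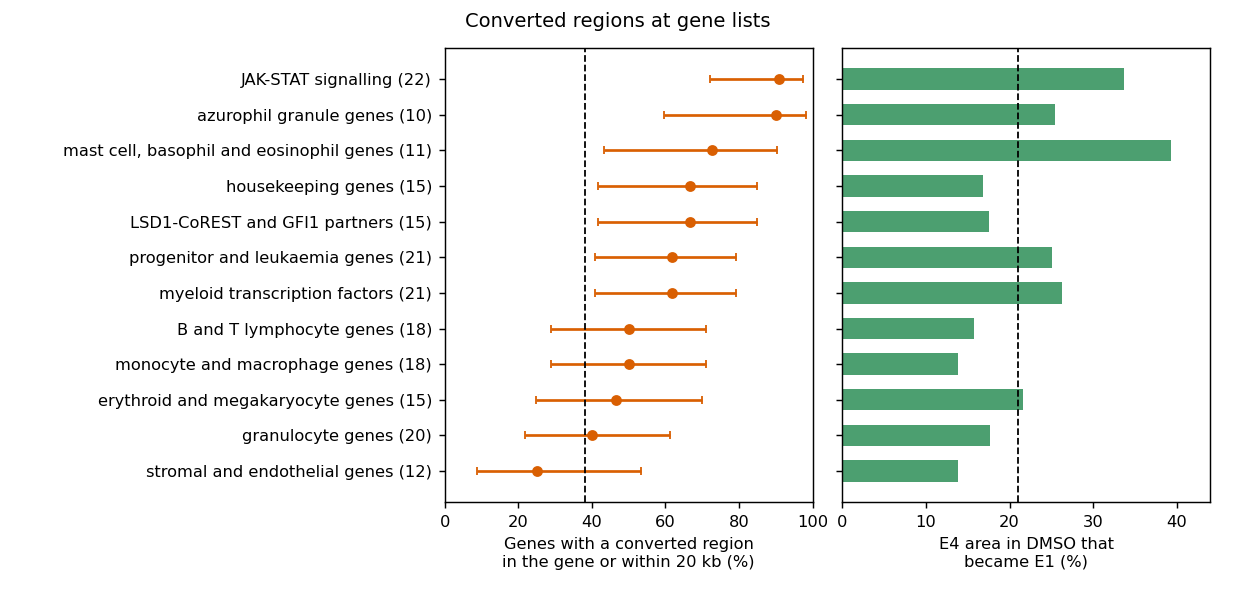
Left, share of genes (horizontal axis, %) with a converted region in the gene or within 20 kb, with 95% Wilson intervals, for 12 gene lists (number of genes matched in brackets). Right, share of the lists' E4 area in DMSO that became E1 (horizontal axis, %, bars from 0). Dashed lines are all protein-coding genes, at 38.0% and 21.0%. JAK-STAT genes are highest on the left at 90.9% and mast cell, basophil and eosinophil genes on the right at 39.2%.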

How the data were processed

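H3K4me1, H3K4me3 and H3K27Ac were measured in 6 immunoprecipitated libraries, 3 per treatment, with 1 input library. The deposited values used here are state labels, E1 to E6, of segments on a 200 bp grid, in 1 segmentation per treatment pooled over its marks. Per the submitters' processing notes, the tools included Bowtie and the genome was mm10 (GRCm38). How the states were called, and whether the input was used, is not stated in the labels. Reads were not analysed, so depth is unknown, and a weaker library could lose marks below a threshold.

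Segments were expanded to bins of chromosomes 1 to 19 and X, and E4 bins of each fate were merged into regions (Python 3.11.15, numpy 2.4.6, pandas 2.3.3, scipy 1.17.1). Gene bounds were from RefSeq (GRCm38.p6, 21627 protein-coding genes). Distal meant more than 2.5 kb from any end of a protein-coding gene. Promoter windows were present for 17125 of those genes. Transcription start windows and miRNAs were used here without chromosome 18, so start distances rest on 15274 of the regions. Of 199 gene list entries 198 were matched, all but Azu1. Region finding was tested on simulated data: 200 of 200 planted regions were found in place.

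The members and gene lists were chosen with earlier results of these data known. Named genes were, by rule, the 10 longest regions, the 12 genes with the largest converted area, the 3 largest members of each of 12 lists, the regions around the printed promoter windows, and Kdm1a, Gfi1, Gfi1b, Cebpa, Cebpe, Csf3r, Itgam and Spi1. Other JAK-STAT and granule genes, and Mir141, Mir200c, Mir222 and Mir339, were named after their values were seen.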

Additional observations from a re-analysis of the deposited data

How the results depend on the processing

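Of 49 alternatives, 25 left the value within its interval, or a count within 1.5 times, and 24 moved it. The number of regions and the number of genes with one stayed within 1.5 times under every alternative, an allowance wider than the intervals used for shares. Against 15703 in the main setting, regions numbered 12497 with at least 2 bins and 22201 with E1 or E6 as the target. Genes with a region numbered 5933 with a window of 5 kb and 11046 with 50 kb, against 8222. With chromosome X left out the share of E4 bins that became E1 was 21.8%. Without bins next to E1 in DMSO or to E4 in GSK-LSD1 it was 21.3%, regions with E1 on both sides in GSK-LSD1 were 26.5% and whole segments 33.0%. With E1 or E6 as the target, the share of E4 bins was 41.5%, the median length 1000 bp, distal regions 77.7%, genic regions 60.3%, E2 on both sides in DMSO 18.9% and whole segments 79.2%. With regions of at least 2 bins, the median length was 800 bp, genic regions 63.0%, E2 on both sides 16.3% and whole segments 36.0%. With regions up to 1000 bp apart joined, the median length was 800 bp, distal regions 83.1%, E2 on both sides 22.0%, E1 on both sides 27.7% and whole segments 36.1%. Distal regions were 91.7% with a limit of 1 kb, 55.8% with 10 kb and 73.0% against genes of every type. Genic regions were 69.8% with genes of every type and 62.1% where any bin overlapped a gene. The largest change, in whole segments with E1 or E6 as the target, follows from adding E6 to the bins taken.

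No paired analysis was possible because each treatment has 1 segmentation and no replicates. Depth is unknown, so how far it limits the states is unknown too.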
